A study of Rattus norvegicus with 16 samples.

Results

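Transcript levels in rat dentate gyrus were compared between the 2 arrays labelled 24 hour and the 2 arrays labelled 0 hours, 4 of the 16 arrays of the series, chosen by those labels alone. Of 8740 probe sets that are not controls, the 6220 that passed an intensity filter were tested, and those with 1 gene symbol covered 3678 genes. Total RNA was hybridised to Affymetrix RGU34A, a single-colour rat expression array. All labels describe the animals as rats trained in passive avoidance, a task that teaches an animal to hold back a response once punished. The 3 naive arrays carry that wording too and are taken here as untrained. The other groups of the series (2, 3, 6 and 12 h; 9 arrays) entered only the estimate of the spread and the description of levels across groups. Strain, age and sex of the animals and the point from which the hours count are not stated in the labels. Whether replicates were separate animals is not stated either, and p-values thus reflect the spread among these samples alone, which may be technical.

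The dentate gyrus is the entry station of the hippocampal circuit: its granule neurons receive cortical input and send mossy fibres to the pyramidal neurons of the next field. Training and novelty switch on activity-induced genes in these neurons within minutes to hours, while structural proteins, receptors and glial genes are known to move more slowly. A block of dentate tissue also holds interneurons, astrocytes, oligodendrocytes, microglia and vessels, and can carry choroid plexus, the secretory tissue of the adjoining ventricle. In such bulk tissue, fewer cells of a type and less RNA per cell cannot be told apart.

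Each array was scaled to a common mean of 105 after trimming 2% at each end, values under the 20th percentile of all arrays (5.05) were raised to that floor, and log2 was taken. The floor is 2.34 on the log2 scale. All levels below are log2 intensities on this scale, given for replicates 1 and 2 at 0 h and then for replicates 1 and 2 at 24 h. Differences are the 24 h mean minus the 0 h mean with the standard error (SE) from limma, a linear model fitted to all probe sets and all 16 arrays, with p-values adjusted by the Benjamini-Hochberg method. With 2 arrays against 2, an exact permutation test cannot go below a two-sided p of 0.333, so the tests rest on the spread shared over 7 groups.

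The trimmed mean before scaling was 100 and 89.3 on the 0 h arrays and 117 and 170 on the 24 h arrays. Measures of RNA quality and of the tissue taken moved with the comparison. The 3' to 5' intensity ratio of the beta-actin control, which is higher in more degraded or less fully copied RNA, was 2.62 and 2.30 at 0 h and 1.85 and 1.77 at 24 h. Naive arrays lay between 1.49 and 1.70, so the 0 h arrays were the further from them. The Gapdh control ratio followed the same order, with 1.54 and 1.69 at 0 h, 1.15 on both 24 h arrays and 1.12 to 1.28 on naive arrays. Ttr (transthyretin), the leading message of choroid plexus, measured 11.26 and 7.04 at 0 h and 6.19 and 6.20 at 24 h, against 10.80 to 11.94 on naive arrays. Only the first 0 h array held it at the naive level. The correlation between arrays was 0.957 within the 0 h pair, 0.967 within the 24 h pair and 0.944 to 0.954 across the groups.

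**Figure D1:**
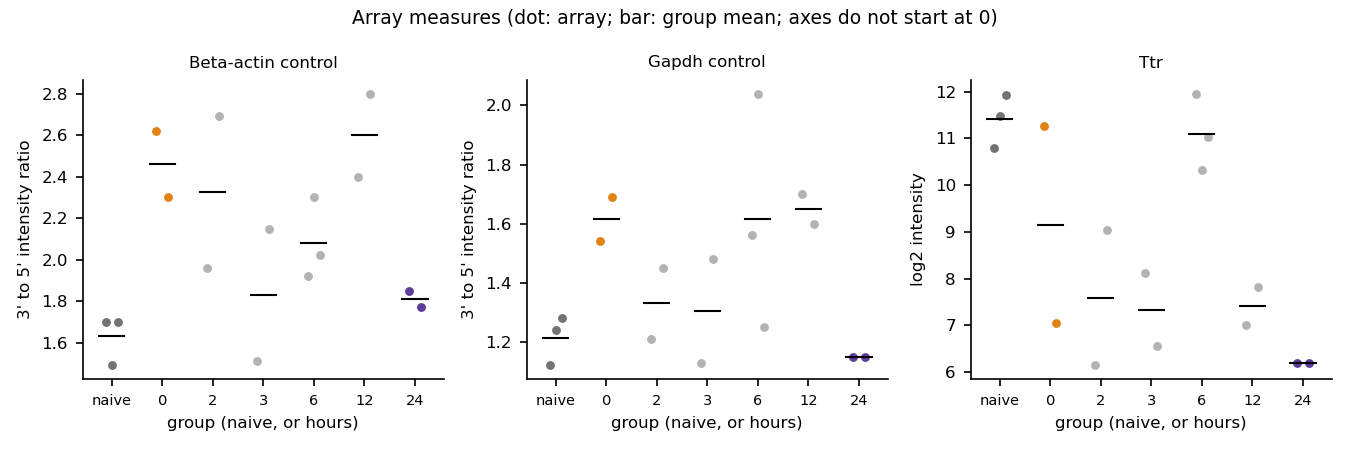
The 3' to 5' ratio of the beta-actin control (left), the same ratio for Gapdh (middle) and the log2 intensity of Ttr (right) are plotted by group, with 1 dot per array, bars for group means, and naive, 0 h and 24 h arrays coloured. The 0 h arrays have actin ratios of 2.62 and 2.30 against 1.85 and 1.77 at 24 h, and the 0 h pair is split in Ttr, 11.26 against 7.04.

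No probe set passed an adjusted p under 0.05 in the limma fit with Benjamini-Hochberg adjustment (0 of 6220, 0%), and the smallest adjusted p was 0.228, for Mal. At an unadjusted p under 0.05 there were 299 probe sets higher at 24 h (4.81% of those tested) and 278 lower (4.47%), together 577 where 311 would fall below that p if nothing differed. The median difference over all probe sets was 0.01, and 49.1% were lower at 24 h. Among probe sets with an unadjusted p under 0.05, 124 were lower and 85 higher by at least 1 log2 unit. By gene, taking for each the probe set with the highest mean, 180 of 3678 were higher (4.89%) and 161 lower (4.38%) at an unadjusted p under 0.05. On levels alone, both 24 h arrays lay above both 0 h arrays for 915 genes (24.9%) and below them for 804 (21.9%), and the median difference over genes was 0.03.

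The count of calls turned on how the spread was estimated. A limma fit of the 4 arrays alone, with 2 residual degrees of freedom in place of 9 and 5334 probe sets, passed 132 (44 higher), and a fit of all arrays with array weights passed 54 (25 higher). In the weighted fit the 0 h arrays each received 1.37 and the 24 h arrays 1.40, while 6 h replicate 2 received 0.376. Without the intensity filter 2 passed, on probe sets of Kcnj10 and Myh7 that the filter removes. Leaving out 0 h replicate 2 passed 2, Adcy5 and the olfactory receptor gene Or8g20b, and leaving out 24 h replicate 2 passed 1, Dock9. With the actin ratio as a covariate none passed, and the counts at an unadjusted p under 0.05 were 124 higher and 172 lower. With Ttr as a covariate none passed either, with 179 higher and 164 lower. Leaving out single arrays of the comparison also lowered those counts, to 189 higher and 173 lower without 0 h replicate 1, 184 lower without 0 h replicate 2, 186 higher without 24 h replicate 1, and 179 higher and 161 lower without 24 h replicate 2. The genes described below are the 15 in each direction with the smallest p, with adjusted p between 0.228 and 0.335 in limma, and members of gene lists drawn up for this tissue. Those lists were drawn up with earlier results of these data known. Because the 30 were picked by p, their p-values and the separation of their arrays describe them and support nothing further.

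**Figure D2:**
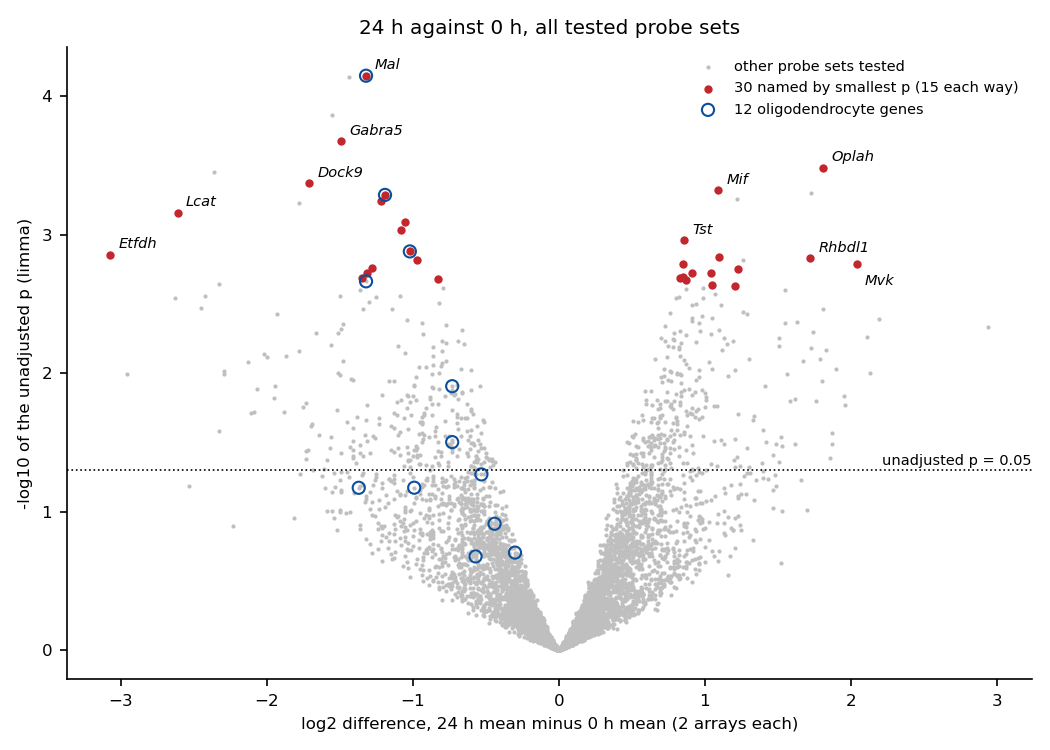
Each dot is 1 of 6220 probe sets, with the log2 difference of 24 h minus 0 h on the horizontal axis and -log10 of the unadjusted limma p on the vertical axis, the 30 named genes in red, the 12 oligodendrocyte genes ringed, and a dotted line at an unadjusted p of 0.05. All 12 rings lie left of 0, from -1.37 for Enpp6 to -0.30 for Pmp22, and Mal stands highest.

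Genes of oligodendrocytes, the cells that wrap axons in myelin, were lower at 24 h than at 0 h. All 12 measured genes of the 23 listed had both 24 h arrays below both 0 h arrays, where 21.9% of all genes did. For 6 of the 12 the unadjusted p was under 0.05, where 4.38% of all genes were lower at that p, and none passed the adjusted threshold. The list was chosen with earlier results of these data known, so these counts describe the genes and are not independent support. The median difference of the 12 was -0.86, beside 0.03 over all genes. Summed over the list, the scaled intensity was 6458 and 6710 on the 0 h arrays, 3537 and 3861 on the 24 h arrays and 5324 to 7054 on naive arrays.

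The gene with the smallest p of all was Mal, which encodes a raft-associated proteolipid that sorts membrane proteins in myelinating cells. Its levels were 8.90 and 9.01 at 0 h and 7.43 and 7.83 at 24 h. The difference was -1.32 (SE 0.25, unadjusted p = 7.12e-05), a 2.50-fold lower intensity, and its adjusted p of 0.228 in limma ranged from 0.0165 to 0.997 over the other settings. Leaving out each of the 4 arrays in turn gave differences from -1.52 to -1.12, and the actin covariate gave -1.35. Ugt8, the enzyme that makes the myelin lipid galactosylceramide, measured 8.53 and 9.12 at 0 h and 7.74 and 7.53 at 24 h, a difference of -1.19 (SE 0.28, unadjusted p = 0.000516). Mobp, an abundant structural protein of the compact sheath, had 10.82 and 11.06 at 0 h and 9.80 and 10.04 at 24 h, a difference of -1.02 (SE 0.26, unadjusted p = 0.00132). The other 3 probe sets of Mobp gave -1.16, -0.96 and -0.89. In these 3 genes both 24 h arrays lay below both 0 h arrays and below all 3 naive arrays.

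Surface and adhesion proteins of the myelin sheath followed the same order. Mog, a protein of the outermost myelin layer, measured 7.51 and 7.81 at 0 h and 6.51 and 6.17 at 24 h, a difference of -1.32 (SE 0.36, unadjusted p = 0.00217), and its second probe set gave -1.49. Mag, an adhesion protein of the innermost layer facing the axon, measured 7.25 and 7.41 against 6.63 and 6.58, a difference of -0.73 (SE 0.26, unadjusted p = 0.0124). Its second probe set gave -0.36. The main structural protein Mbp measured 11.04 and 10.79 against 10.14 and 10.22, a difference of -0.73 (SE 0.31, unadjusted p = 0.0314). These were the 6 genes below an unadjusted p of 0.05.

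The other 6 oligodendrocyte genes did not reach that p. Cnp, an enzyme of the myelin cytoplasm, gave -0.53 (SE 0.25, unadjusted p = 0.0537), with 8.32 and 8.45 at 0 h and 7.84 and 7.87 at 24 h. The gap junction gene Gjb1 gave -0.99 on 5.80 and 5.49 against 5.43 and 3.87, so that the second 24 h array carried most of it. Enpp6, a choline phosphodiesterase of newly forming oligodendrocytes, gave -1.37 with 24 h replicate 2 at the floor. Qdpr gave -0.44, Pmp22 gave -0.30, and Sox10, the transcription factor of the lineage, gave -0.57 with an SE of 0.43.

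**Figure D3:**
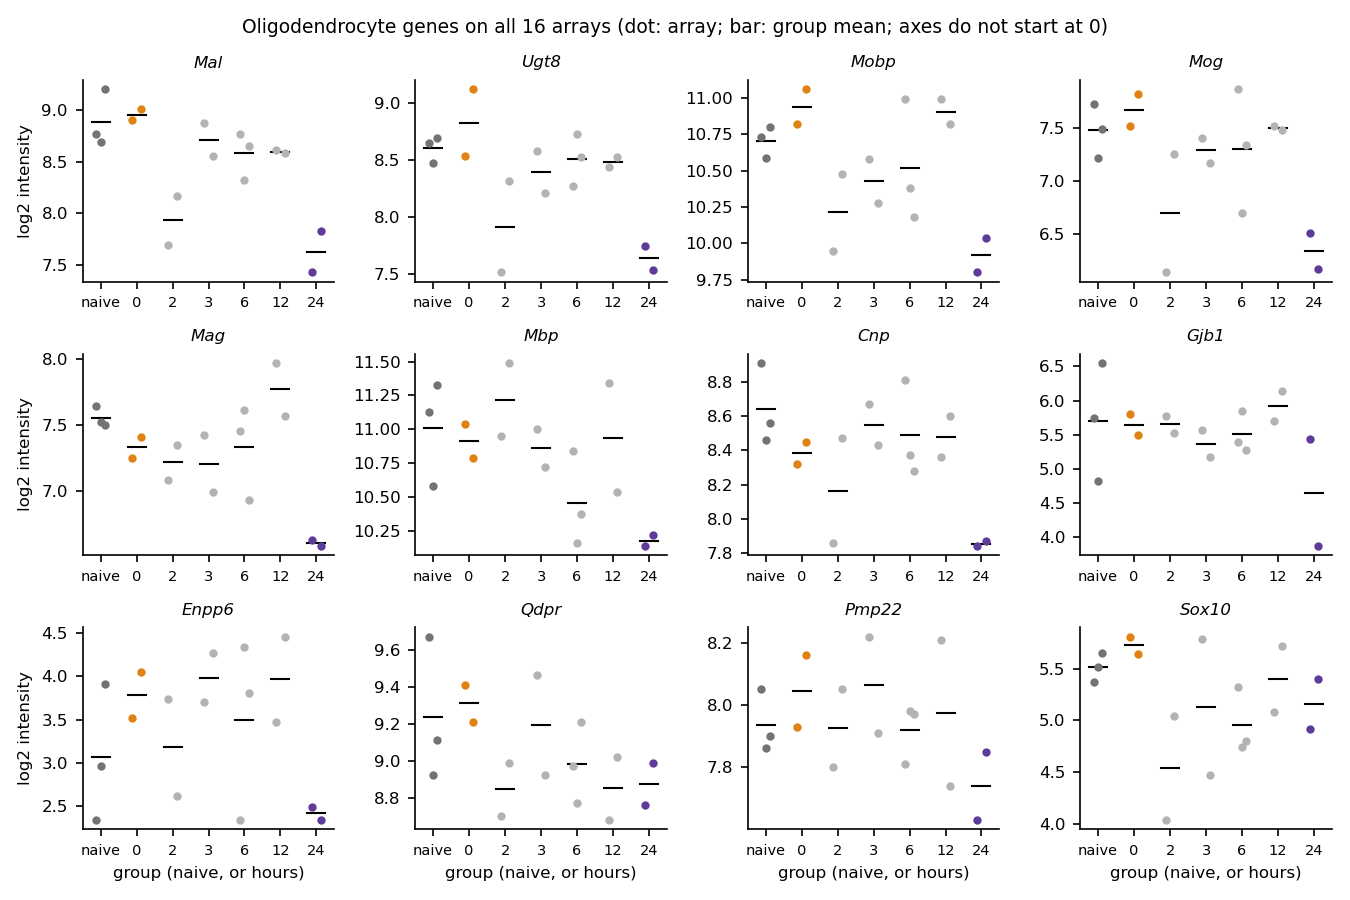
Log2 intensity of the 12 oligodendrocyte genes in the 7 groups, with 1 dot per array, bars for group means, and naive, 0 h and 24 h arrays coloured; the vertical axes differ between panels and do not start at 0. The 24 h mean is the lowest of the 7 group means in 10 panels, the exceptions being Qdpr and Sox10, and the 2 h mean lies below the naive mean in the panels of Mal, Ugt8, Mobp and Mog.

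Set beside the naive arrays, the distance lay on the 24 h side. The median of the 12 genes was -0.81 for 24 h minus naive and 0.09 for 0 h minus naive, 2 values that share the arrays of the comparison above and are not independent of it. Both 24 h arrays lay below all 3 naive arrays for 8 of the 12 genes, where they did for 733 of all 6220 probe sets. Over the time course the 24 h mean was the lowest of 7 group means for 10 of the 12, where it was for 821 of all 6220 probe sets. Low values were not seen at 24 h alone. Mal averaged 7.93 at 2 h and 7.63 at 24 h but between 8.58 and 8.95 in the other groups, and the 2 h mean of Sox10 (4.54) lay below its 24 h mean (5.16).

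The oligodendrocyte difference was also computed with the array measures in the model. The actin ratio itself separated the 0 h from the 24 h arrays, so a covariate cannot part it from the hours. The role of RNA quality was not tested. The median was -0.78 with the actin ratio as a covariate, where 5 genes had an unadjusted p under 0.05, and -0.78 with Ttr as a covariate, where 6 did and 11 of 12 were lower. It was -0.82, -0.87, -0.83 and -0.79 on leaving out each of the 4 arrays in turn, with 12 of 12 lower each time. Over all settings it lay between -0.87 and -0.73. By adjusted p in limma, 5 of the genes passed in the 4-array fit and 4 with array weights. The amount of white matter taken with each sample is not recorded in the labels, and its part in the result was not tested.

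The 250 bases upstream of the start of transcription are shown for Mal, with the smallest p, for Mobp, with the most matches to the core motif of SOX factors, and for Mag, with 1 match. They were read from RefSeq, build GRCr8, and run 5' to 3' on the strand of the gene. Capitals mark ACAAAG or its reverse complement CTTTGT, searched on both strands.
Mal (chr3:135341424-135341673, minus strand): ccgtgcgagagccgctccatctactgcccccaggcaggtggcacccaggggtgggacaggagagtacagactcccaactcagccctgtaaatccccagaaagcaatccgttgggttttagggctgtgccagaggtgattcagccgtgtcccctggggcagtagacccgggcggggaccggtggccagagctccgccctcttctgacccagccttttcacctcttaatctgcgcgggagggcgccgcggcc
Mobp (chr8:128746982-128747231, plus strand): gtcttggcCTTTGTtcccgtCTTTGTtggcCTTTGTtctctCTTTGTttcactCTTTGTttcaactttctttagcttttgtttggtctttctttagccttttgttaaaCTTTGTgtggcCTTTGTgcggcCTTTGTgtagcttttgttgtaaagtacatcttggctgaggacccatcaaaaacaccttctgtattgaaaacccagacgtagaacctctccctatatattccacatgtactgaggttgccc
Mag (chr1:95291045-95291294, minus strand): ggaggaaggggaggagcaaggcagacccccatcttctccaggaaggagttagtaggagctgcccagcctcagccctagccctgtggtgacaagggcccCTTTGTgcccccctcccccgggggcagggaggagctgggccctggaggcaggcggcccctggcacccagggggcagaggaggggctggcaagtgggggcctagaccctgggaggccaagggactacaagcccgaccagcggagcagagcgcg
Of the 10 oligodendrocyte genes with a promoter in the table, 4 held the motif (Mobp 8 times, Mag, Cnp and Enpp6 once each), as did 16.3% of 33469 windows of this length. A match describes the letters of the window and shows no binding.

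Responses to glucocorticoids, the adrenal stress hormones, were followed in 13 measured genes of 26 listed. Of these, 4 were lower at 24 h at an unadjusted p under 0.05 (4.38% of all genes) and none higher (4.89%), while the median was -0.07. Klf9, a hormone-induced repressor of transcription, measured 9.75 and 9.68 at 0 h and 8.82 and 8.50 at 24 h, a difference of -1.05 (SE 0.26, unadjusted p = 0.000815). Its second, dimmer probe set gave -0.13. Errfi1, a feedback inhibitor of the EGF receptor, measured 6.55 and 6.65 against 5.67 and 5.58, a difference of -0.97 (SE 0.26, unadjusted p = 0.00151). Both 0 h arrays lay above both 24 h arrays in either gene, and Klf9 at 0 h also lay above all 3 naive arrays (8.97 to 9.35).

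The kinase gene Sgk1 measured 7.85 and 6.70 at 0 h and 6.01 and 6.58 at 24 h. Its difference of -0.98 (SE 0.34, unadjusted p = 0.0106) rested on the first 0 h array, and was -0.40 without it and -0.40 with Ttr as a covariate. Glul, the glutamine synthetase of astrocytes, gave -0.54 (SE 0.19, unadjusted p = 0.0124) on its brightest probe set. Its 3 other probe sets gave -0.60, 0.21 and 0.49, so no single direction held for the gene. Gpd1, an enzyme of glycerol metabolism, gave -1.29 with an SE of 0.67. The receptors themselves differed by 0.09 (Nr3c1, SE 0.36) and 0.00 (Nr3c2, SE 0.26), with -0.60 and -0.18 on their second probe sets and overlapping arrays in all, and the hormone-activating enzyme Hsd11b1 by 0.07 (SE 0.25). The glucocorticoid receptor half-site AGAACA, searched on both strands, was in 0 of the 9 upstream windows that the table held for these genes and in 17.5% of all windows. That says only that these letters are not in these windows.

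Activity-induced transcription factors showed no common direction at 24 h, with 8 of 18 higher, 10 lower and a median of -0.06. Fos, the classic early gene, measured 6.29 and 6.53 at 0 h and 6.92 and 6.40 at 24 h, with overlapping groups, while its dimmer second probe set gave 0.98 (SE 0.60) on 2.96 and 4.54 against 4.87 and 4.59, without overlap. The brightest probe set of Jun, a partner of Fos, gave -0.18 (SE 0.33) with overlapping arrays. Of its other 3, which gave -0.99 (SE 0.43), -0.35 and 0.00, the first 2 did not overlap and the first had an unadjusted p under 0.05. Arrays of the groups overlapped for Junb, at 0.29 (SE 0.37) and 0.22, and for Nr4a1, at -0.27 (SE 0.41) and -0.09 on its second probe set. Egr1, a zinc finger factor induced by synaptic activity, measured 9.41 and 9.39 against 8.99 and 8.89, a difference of -0.46 (SE 0.33), and its other probe sets gave -0.16, 0.32 and 0.32. The exception by p was Cebpb, a factor of the C/EBP family, with 6.35 and 7.15 at 0 h and 7.80 and 7.57 at 24 h. Its difference was 0.94 (SE 0.30, unadjusted p = 0.00592), and its second probe set gave 0.80.

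Among the effector genes that neuronal activity induces, 3 of 15 were lower at an unadjusted p under 0.05, Sgk1 among them, and none was higher, where 4.38% of all genes were lower and 4.89% higher. Homer1, a scaffold of metabotropic glutamate receptors with an activity-induced short form, measured 7.98 and 7.71 at 0 h and 7.25 and 6.83 at 24 h, a difference of -0.80 (SE 0.27, unadjusted p = 0.00843). Of its other 5 probe sets, 4 were lower, by -1.14 to -0.44, and 1 higher, by 0.47. Dusp6, a phosphatase that switches off ERK, measured 7.02 and 6.49 against 5.84 and 5.62, a difference of -1.02 (SE 0.38, unadjusted p = 0.0161). Arc, a regulator of AMPA receptor uptake whose message travels into dendrites, differed by 0.10 (SE 0.23), with 7.32 and 7.45 at 0 h and 7.64 and 7.32 at 24 h. The list as a whole had a median of -0.18, with a range of -0.25 to 0.01 over the settings.

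Subunits of the GABA-A receptor, the main inhibitory channel, lay in opposite directions. Gabra5, the subunit of extrasynaptic receptors concentrated in the hippocampus, had the second smallest p among named genes. It measured 8.18 and 8.58 at 0 h and 6.74 and 7.04 at 24 h, a difference of -1.49 (SE 0.32, unadjusted p = 0.000211), and its dimmer second probe set gave -0.59. Naive arrays ranged from 7.07 to 8.28, above both 24 h arrays and overlapping the 0 h arrays. Gabrd, the delta subunit that granule neurons place outside synapses, measured 7.30 and 6.59 against 7.83 and 7.93, a difference of 0.93 (SE 0.36, unadjusted p = 0.0206), with 0.80 on its second probe set. Gabrb1 gave 0.73 (SE 0.27, unadjusted p = 0.0158), from 6.35 and 6.25 at 0 h to 7.23 and 6.83 at 24 h. Gad1, which makes GABA, measured 9.30 and 9.20 against 8.27 and 8.68, a difference of -0.77 with an SE of 0.43. Over the 19 measured genes of the GABA system 10 were higher, 9 lower and the median was 0.17.

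Slc12a2, the chloride importer that sets how GABA acts on a cell, measured 7.82 and 8.06 at 0 h and 6.86 and 6.58 at 24 h. The difference was -1.22 (SE 0.29, unadjusted p = 0.000572), and its 2 dimmer probe sets gave -0.40 and -0.18. Its message is also present in oligodendrocytes and choroid plexus, whose genes were lower in the same arrays, and their part in the result was not tested. Atp1b3, a subunit of the sodium pump, had 9.04 and 9.07 at 0 h and 8.26 and 8.19 at 24 h, a difference of -0.83 (SE 0.23, unadjusted p = 0.0021). Naive arrays measured 8.50 to 8.81 for Atp1b3, so the 0 h arrays lay above them and the 24 h arrays below.

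Of 32 glutamate receptor and scaffold genes, 1 was higher at an unadjusted p under 0.05 (4.89% of all genes) and none lower (4.38%), with a median of 0.04. That gene, Grik5, a kainate receptor subunit, gave 0.89 on 7.41 and 8.53 at 0 h and 8.96 and 8.76 at 24 h, and without 0 h replicate 1 the difference was 0.33. Among genes of synaptic vesicle release, 3 of 39 were lower and 1 higher at that p, where 4.38% and 4.89% of all genes were. Sv2b, a vesicle glycoprotein, measured 10.55 and 11.23 against 9.89 and 9.92, a difference of -0.99 (SE 0.35, unadjusted p = 0.0122). Vamp3 gave -0.60 (SE 0.23) and Snap91, a clathrin adaptor, -1.13 (SE 0.46). Sh3gl1, an endophilin, was the gene in the other direction, at 0.57 (SE 0.26).

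Secreted peptides and trophic factors included genes in both directions. Nptx1, a neuronal pentraxin that clusters AMPA receptors, measured 8.36 and 8.53 at 0 h and 7.59 and 7.42 at 24 h, a difference of -0.93 (SE 0.29, unadjusted p = 0.00518), and its 2 other probe sets gave -0.71 and -1.13. Trh, the precursor of thyrotropin-releasing hormone, measured 4.38 and 4.77 against 5.67 and 5.14, a difference of 0.83 (SE 0.31, unadjusted p = 0.017), with 1.23 on its second probe set. Cck, a peptide of one class of interneurons, gave 0.62 (SE 0.27), from 7.52 and 7.73 to 8.09 and 8.42, and Fgf1 gave 0.92 (SE 0.43). Bdnf, the neurotrophin most tied to hippocampal plasticity, measured 6.69 and 6.15 at 0 h and 6.69 and 6.58 at 24 h on the brightest of its 7 probe sets, a difference of 0.22 (SE 0.40). The other 6 gave -1.41 to 0.44, 3 of them below 0. The lowest, at -1.41 (SE 0.64), had an unadjusted p under 0.05 with 24 h replicate 1 at the floor, so no single direction held for the gene. Npy and Penk differed by -0.09 (SE 0.26) and 0.14 (SE 0.26). Of the 33 measured genes 3 were higher and 1 lower at an unadjusted p under 0.05, where 4.89% and 4.38% of all genes were.

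Signalling and cytoskeletal genes among the 15 lower by smallest p were Dock9, Chn2, Csrp1, Ngfr and Rara. Dock9, which activates the small GTPase Cdc42, measured 8.30 and 8.66 at 0 h and 6.00 and 7.53 at 24 h, a difference of -1.71 (SE 0.39). The 24 h arrays differed by more than 1 unit, and leaving out the second gave -2.48 and an adjusted p of 0.034 in limma, within a range of 0.034 to 0.997 over the settings. Chn2, which restrains Rac, gave -1.31 (SE 0.36), from 6.74 and 6.93 to 5.18 and 5.86. Csrp1, a LIM protein of actin bundles, gave -1.28 (SE 0.34), from 7.37 and 7.87 to 6.56 and 6.11. Groups did not overlap in any of these 3 genes.

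Ngfr, the low-affinity neurotrophin receptor, measured 6.18 and 6.19 at 0 h and 4.94 and 4.74 at 24 h, a difference of -1.35 (SE 0.37), while another probe set of the gene, at about 8 on every array, gave 0.19. Rara, a retinoic acid receptor, measured 9.58 and 9.19 against 8.41 and 8.20, a difference of -1.08 (SE 0.27). Lcat, a cholesterol-esterifying enzyme of lipoproteins, gave -2.61 (SE 0.63) on 5.31 and 4.78 against 2.53 and 2.34, the last value being the floor. Etfdh, a mitochondrial electron carrier of fatty acid oxidation, gave -3.07 (SE 0.80), also with 24 h replicate 2 at the floor. Its brightest probe set gave -0.76 (SE 0.35) and the remaining one -0.36. For both genes the size moved with the settings, from -2.87 to -0.96 for Lcat and from -3.64 to -1.46 for Etfdh over the settings. For 14 of the 15 genes lower by rule the 24 h mean was the lowest of the 7 groups, where it was for 821 of all 6220 probe sets. For 13 the 0 h mean was the highest, where it was for 909 of the 6220. Picking genes by p for 24 h below 0 h favoured both counts beforehand, so they support nothing further.

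The 15 genes higher at 24 h by smallest p are described next, without a test of any shared function. Oplah, an enzyme of glutathione turnover, measured 4.30 and 4.33 at 0 h and 6.57 and 5.68 at 24 h, a difference of 1.81 (SE 0.40, unadjusted p = 0.000328). Mif, a cytokine-like protein stored in neurons and glia, measured 7.48 and 7.69 against 8.56 and 8.79, a difference of 1.09 (SE 0.25, unadjusted p = 0.000475). Its brighter second probe set, with a 24 h mean of 10.78, gave 0.26. Tst, the mitochondrial sulfur transferase rhodanese, measured 7.93 and 7.99 against 8.85 and 8.78, a difference of 0.86 (SE 0.22), and its second probe set gave 1.05. In all 3 genes the gap between the groups exceeded the spread within either.

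Mvk, the mevalonate kinase of cholesterol synthesis, gave 2.04 (SE 0.54) on 3.74 and 3.67 at 0 h and 5.79 and 5.71 at 24 h. Its second probe set, with the higher mean over all arrays, gave 0.63 (SE 0.60). Rhbdl1, a membrane protease of the rhomboid family, measured 4.59 and 4.54 against 6.18 and 6.39, a difference of 1.72 (SE 0.45). Atp5f1d, the delta subunit of the mitochondrial ATP synthase, gave 1.04 (SE 0.28) on one probe set and 0.91 on the other. Ctsd, the lysosomal protease cathepsin D, measured 6.78 and 6.70 against 7.41 and 7.74, a difference of 0.83 (SE 0.23), and 0.64 on its brighter second probe set. In all 4 genes both 0 h arrays lay below both 24 h arrays.

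Ddn, Camk2n1, Ctxn1, Cx3cl1 and Tnk2 were also among the 15. Ddn, which encodes dendrin, a protein whose message is carried into dendrites, measured 9.66 and 9.90 at 0 h and 10.65 and 10.60 at 24 h, a difference of 0.85 (SE 0.23). Camk2n1, an inhibitor of the kinase CaMKII, measured 6.89 and 6.59 against 7.98 and 7.59, a difference of 1.05 (SE 0.29), with 0.61 on a dimmer probe set. Cx3cl1, the neuronal chemokine read by microglia, measured 8.14 and 8.34 against 8.98 and 9.24, a difference of 0.87 (SE 0.24). Its brightest probe set gave 0.18 (SE 0.23) and the remaining one 0.99. Ctxn1 (cortexin), Tnk2 (a tyrosine kinase), Dapk3 (a death-associated kinase), Dgcr6 and Fam32a gave 0.85, 0.91, 1.23, 1.10 and 1.21. In each of the 15 both 24 h arrays exceeded both 0 h arrays, as the choice by p would favour.

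Beside the naive arrays, the higher genes differed from the lower ones in where the distance lay. All 15 higher genes were below naive at 0 h, where 3274 of all 6220 probe sets were. For 13 both 0 h arrays lay under all 3 naive arrays, where they did for 726 of the 6220. The 0 h mean was the lowest of the 7 groups for 13, where it was for 1091 of the 6220. For 13 the 24 h mean was nearer to naive than the 0 h mean was. Mif had a naive mean of 8.40, beside 7.59 at 0 h and 8.68 at 24 h. Ctsd had 7.72, 6.74 and 7.58 in that order. The 15 lower genes lay above naive at 0 h and below it at 24 h in every case. Of the 6220 probe sets, 3138 lay below naive at 24 h. For 12 of the 15 the 0 h mean was the nearer to naive. The comparisons with naive share the 0 h and 24 h arrays with the main comparison, and genes picked for a large difference between 2 groups lie low or high in one of them by that choice.

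**Figure D4:**
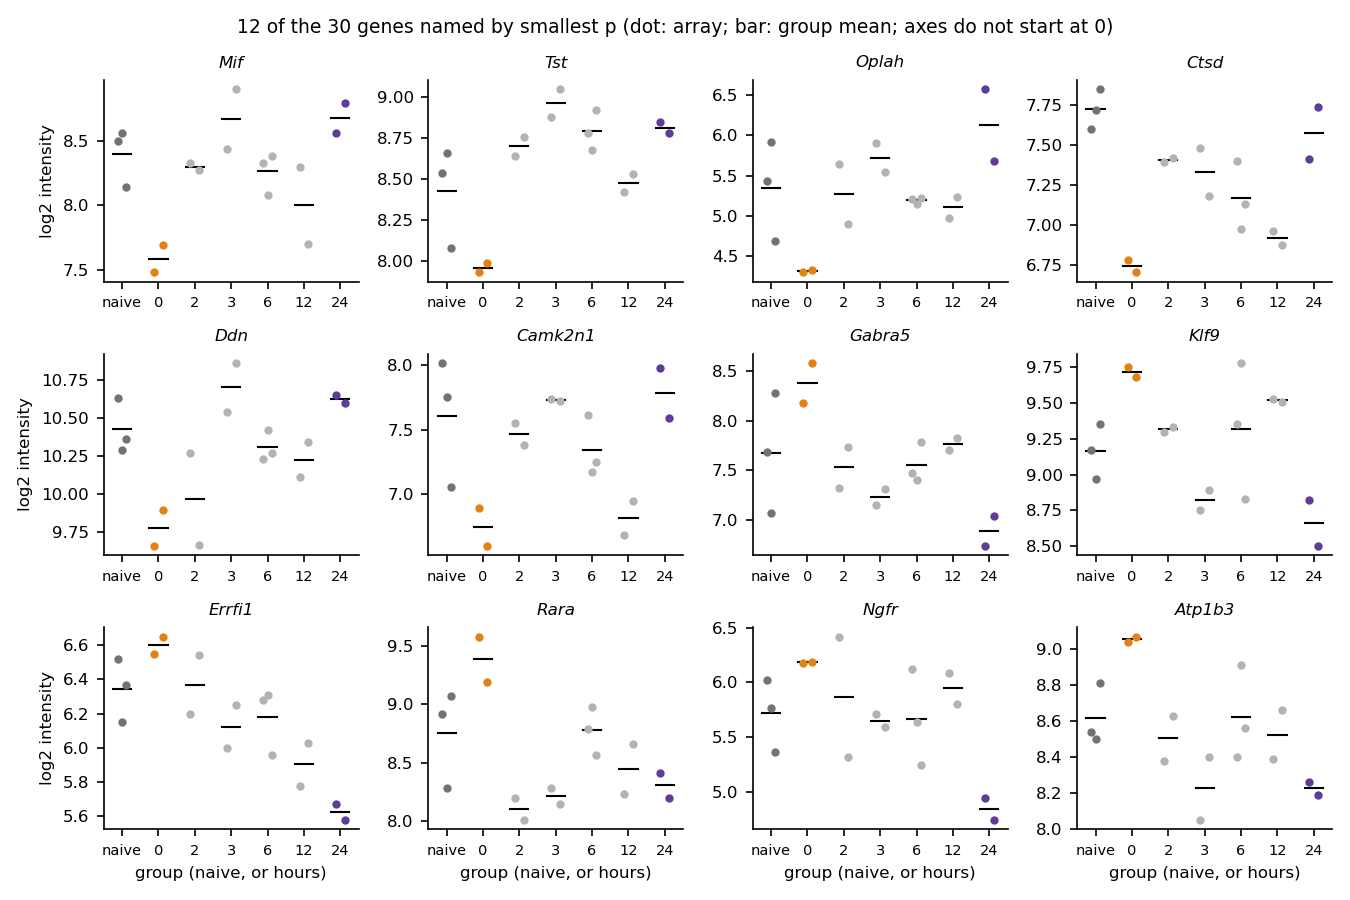
Log2 intensity of 12 of the 30 genes named by smallest p, 6 higher at 24 h (Mif to Camk2n1) and 6 lower (Gabra5 to Atp1b3), in the 7 groups, with 1 dot per array and bars for group means; the vertical axes differ and do not start at 0. Mif, Tst, Oplah and Ctsd are lowest at 0 h and near or above the naive mean at 24 h, while Gabra5, Errfi1 and Ngfr are lowest at 24 h.

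RNA quality moved with these genes. The actin ratio was higher on the 0 h arrays than on naive and 24 h arrays, as given above. With that ratio as a covariate the difference was 1.01 for Mif, 0.66 for Ctsd, -1.25 for Gabra5 and -0.82 for Klf9, and the median over all probe sets was -0.07. Over all probe sets 296 then had an unadjusted p under 0.05 in limma, where 577 had it without the covariate. Of the 30, which were picked by small p, 28 kept such a p, all 15 higher ones included, and 29 did with Ttr as a covariate. The part of RNA quality in these differences was not tested. Across all settings the 80 probe sets followed gave 2470 values, all in the direction given here, of which 74 were past the adjusted threshold. The 80 were picked by small p in this comparison and the settings share its arrays, so a kept direction was favoured beforehand and supports nothing further.

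Markers of choroid plexus, ependyma and meninges were lower at 24 h in 12 of 19 measured genes of 32 listed, with a median of -0.43, where 47.8% of all genes were lower, and 3 of the 19 were lower at an unadjusted p under 0.05, where 4.38% of all genes were. Summed over the list, the scaled intensity was 4384 and 1224 on the 0 h arrays, 903 and 773 on the 24 h arrays and 3013 to 7237 on naive arrays. Ttr differed by -2.96 (SE 1.02, unadjusted p = 0.0102), and by -0.85 without 0 h replicate 1 and -5.06 without 0 h replicate 2. Enpp2, the secreted enzyme autotaxin, which oligodendrocytes also make, measured 8.80 and 7.26 at 0 h and 5.97 and 5.84 at 24 h. Its difference was -2.13 (SE 0.71, unadjusted p = 0.00823), and -1.36 without 0 h replicate 1, and its second probe set gave -2.45. Slc4a2, an anion exchanger, gave -1.09 (SE 0.45), and Ptgds, a prostaglandin synthase of meninges and oligodendrocytes, gave -1.25 (SE 0.60).

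Other plexus genes were mixed. Aqp1, a water channel that defines the plexus, was at the floor on both 24 h arrays and on 0 h replicate 2, and at 3.20 on 0 h replicate 1, the array of the 4 with the highest Ttr. Igf2 gave -0.54 on its brightest probe set and -0.25, 0.07 and 0.08 on the others, with overlapping arrays in all 4. The brightest probe set of Igfbp2 gave 0.17 with overlapping arrays. Its other probe sets gave -1.55, on 6.31 and 4.55 at 0 h and 3.33 and 4.43 at 24 h, and -0.74, on 6.41 and 5.24 against 5.05 and 5.11, without overlap in either, so the probe sets of this gene disagreed. Kl gave 0.24 and Cp 0.23. The list's median was -0.12 without 0 h replicate 1, 0.21 with Ttr as a covariate and 0.00 with a higher floor. Against naive, Enpp2 and Igf2 were lower in both groups, with Enpp2 at -3.44 and -1.31 and Igf2 at -2.04 and -1.50 for 24 h and 0 h.

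Astrocyte markers were lower at 24 h in 10 of 14 measured genes, where 47.8% of all genes were, and 2 of them at an unadjusted p under 0.05, where 4.38% of all genes were. The median was -0.20. S100b, a calcium-binding protein of astrocytes, measured 11.49 and 11.32 at 0 h and 10.86 and 10.94 at 24 h, a difference of -0.50 (SE 0.23, unadjusted p = 0.0401), and Glul is given above. The glutamate transporter Slc1a3 measured 10.48 and 10.38 against 9.47 and 9.95, a difference of -0.72 (SE 0.35), while its other 3 probe sets gave -0.57, -0.09 and 0.08. Aqp4, the water channel of astrocyte endfeet, gave -1.18 (SE 0.62) with most of it on 0 h replicate 1 (6.22, against 4.52 on the second). The summed intensity of the list was 21399 and 21820 at 0 h, 17881 and 18298 at 24 h and 17996 to 19908 on naive arrays, so that the 0 h arrays stood above naive and the 24 h arrays at its lower edge. With quantile normalization the median was -0.05.

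Vim, an intermediate filament of glia and endothelium, measured 7.35 and 6.93 at 0 h and 5.34 and 5.62 at 24 h, a difference of -1.66 (SE 0.51, unadjusted p = 0.0051). Vim was counted in the cytoskeleton list and not among the endothelial markers. Slc2a1, the glucose transporter of brain endothelium, measured 8.94 and 9.06 against 8.17 and 8.10, a difference of -0.87 (SE 0.33, unadjusted p = 0.0167), with -0.31 on its second probe set. It was the 1 gene of 16 endothelial and mural markers lower at that p and none was higher, where 4.38% and 4.89% of all genes were. The list's median was -0.09. Microglial markers had 6 of 15 higher and 9 lower, where 47.8% of all genes were lower, and a median of -0.07. At an unadjusted p under 0.05, 1 of them was higher, where 4.89% of all genes were. C1qb, a complement subunit made by microglia, measured 7.36 and 7.20 against 7.74 and 7.81, a difference of 0.49 (SE 0.22, unadjusted p = 0.038), with 0.91 on its second probe set. Blood cell genes had a median of -0.03, and the haemoglobin gene Hbb-b1 gave -0.62 (SE 0.29).

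Neuronal markers are described next, with too few measured to settle which tissue was taken. Calb1 and Nrgn, calcium-handling proteins abundant in granule neurons, were at 8.45 to 8.68 and at 10.58 to 10.87 on the 4 arrays, and differed by 0.02 (SE 0.24) and 0.12 (SE 0.33). A second probe set of Nrgn gave -0.36 (SE 0.35), with 10.37 and 10.43 at 0 h and 9.88 and 10.20 at 24 h, without overlap. The list of 16 granule neuron genes had 7 measured, 4 higher and 3 lower, with a median of 0.02. At an unadjusted p under 0.05, 1 was higher (Gabrd, 0.93, above) and none lower, where 4.89% and 4.38% of all genes were. The summed intensity of the list was 2822 and 2643 at 0 h and 2764 and 2999 at 24 h. Its defining gene Prox1 was not among those tested. Neurod1 gave -0.58 (SE 0.27), and -0.30 on its second probe set. Interneuron genes had 7 of 13 higher and a median of 0.00. Pyramidal neuron and thalamus lists had 2 measured genes each, with medians of -0.22 and -0.13. The granule neuron median was near 0, over genes from -0.58 to 0.93, in the same arrays in which the oligodendrocyte median was -0.86. This difference between lists was not tested.

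Genes of the ribosome and of respiration were counted next. Ribosomal protein genes had 3 of 40 higher at an unadjusted p under 0.05 and none lower (4.89% and 4.38% of all genes), with a median of 0.06. Rpsa, a component of the small subunit, measured 9.48 and 9.55 at 0 h and 10.20 and 10.28 at 24 h, a difference of 0.73 (SE 0.23, unadjusted p = 0.00583), and its second probe set gave the same value. Rps10 gave 0.51 (SE 0.21). Of 55 genes of oxidative phosphorylation, 2 were higher and 5 lower at that p, beside the same 4.89% and 4.38% of all genes, with a median of -0.03. That count took the brightest probe set of each gene, and dimmer probe sets of the list passed that p in both directions. Higher were those of Atp5f1e (1.26), Atp5f1d (1.04), Uqcr11 (0.94), Cox8a and Ndufb6 (0.84 each), Atp5if1 (0.82), Ndufs8 (0.72) and Ndufaf3 (0.71). Lower were those of Ndufb8 (-2) and Uqcrfs1 (-0.6), so no single direction held for the list. Other dimmer probe sets of the list did not pass, those of Cox6a1 and Cox6b1 among them, and the share that passed was not counted. Over all tested probe sets 4.81% were higher and 4.47% lower at that p. Uqcrc2, a core subunit of complex III, measured 9.81 and 9.65 against 8.92 and 8.94, a difference of -0.80 (SE 0.26, unadjusted p = 0.00687), against the 1.04 of the ATP synthase subunit Atp5f1d. Cox4i1 gave -0.63 on its brightest probe set, with -0.09 and 0.23 on the others.

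Chaperones were lower in 22 of 34 genes, where 47.8% of all genes were, with a median of -0.09. At an unadjusted p under 0.05, 3 were lower and 1 higher, where 4.38% and 4.89% of all genes were. Dnaja1, a partner of Hsp70, measured 10.13 and 9.96 at 0 h and 9.35 and 9.20 at 24 h, a difference of -0.77 (SE 0.24, unadjusted p = 0.00604). Canx, the lectin chaperone calnexin, measured 10.59 and 10.72 against 9.97 and 9.68, a difference of -0.82 (SE 0.28, unadjusted p = 0.0099), and its 4 other probe sets gave -0.70 to -0.20. Cryab, a small heat shock protein that oligodendrocytes also make, gave -0.82 (SE 0.30). The disulfide isomerase P4hb, at 0.58 (SE 0.24), was the gene in the other direction.

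In the cytoskeleton and neurite growth list 2 of 37 genes were higher and 3 lower at an unadjusted p under 0.05 (4.89% and 4.38% of all genes). The largest lower difference of the list was that of Vim (-1.66, above). Basp1, a growth cone protein, measured 8.67 and 9.36 at 0 h and 10.18 and 9.84 at 24 h, a difference of 1.00 (SE 0.36, unadjusted p = 0.0139). Marcks, a protein kinase C substrate of the membrane cytoskeleton, measured 7.44 and 8.01 against 7.19 and 6.28, a difference of -0.99 (SE 0.35), with -1.08 and -0.24 on its other probe sets. Tuba4a, a tubulin, gave 0.64 (SE 0.24) and Stmn4, a tubulin-binding stathmin, -0.69 (SE 0.26). Gpc1, a heparan sulfate proteoglycan, was the 1 of 49 adhesion and matrix genes higher at that p, at 0.91 (SE 0.28). Sparc, a matrix protein, was the 1 lower, at -0.83 on one probe set and -0.23 to 0.08 on the others.

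Kinase and second messenger genes had 3 of 53 higher and 3 lower at an unadjusted p under 0.05 (4.89% and 4.38% of all genes). Adcy5, an adenylyl cyclase, measured 3.38 and 5.82 at 0 h and 6.23 and 6.08 at 24 h, a difference of 1.56 (SE 0.54, unadjusted p = 0.0101). That difference was 0.34 without 0 h replicate 1 and 2.77 without 0 h replicate 2, where the adjusted p in limma was 0.0397 within a range of 0.0397 to 0.997, and the second probe set of the gene gave -0.89. Prkcb, a protein kinase C isoform, gave -0.63 (SE 0.24), with -0.18 and 0.04 on its other probe sets. Plcb1, a phospholipase downstream of muscarinic and metabotropic receptors, gave -0.92 (SE 0.38), with 0.95 and -0.45 on its other probe sets. Of 49 voltage-gated channel genes 1 was higher and 2 lower at that p. Kcnc2, a potassium channel of fast-spiking interneurons, measured 7.37 and 7.56 against 6.16 and 6.64, a difference of -1.06 (SE 0.42, unadjusted p = 0.0212), and its other probe sets gave -0.80 and -1.51.

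Metabolic, proteasome, pump and clock genes complete the lists. Among 20 glycolysis genes 1 was higher at an unadjusted p under 0.05 (Aldoa, 0.71, SE 0.32) and 1 lower (Slc2a1, above), with a median of -0.09. Of 42 proteasome and ubiquitin genes 1 was higher at that p (Usp40, 0.69, with -0.57 on a second probe set) and 1 lower (the ubiquitin-conjugating enzyme Ube2a, -0.66, SE 0.24). Over all genes 4.89% were higher and 4.38% lower at that p. Of 13 sodium and calcium pump genes 2 were lower at that p, Atp1b3 and Atp2b4, where 4.38% of all genes were, and 5 had both 24 h arrays below both 0 h arrays, where 21.9% did. Atp2b4, a plasma membrane calcium pump, gave -1.73 (SE 0.65) on 4.74 and 4.37 against 2.34 and 3.30, with 24 h replicate 1 at the floor, and -0.33 on its second probe set. None of 10 circadian clock genes had an unadjusted p under 0.05, and their median of 0.19 was the highest of the 28 lists, beside 0.03 over all genes. Per2, a clock repressor, measured 5.01 and 5.07 at 0 h and 4.37 and 4.74 at 24 h, and Nr1d1 6.08 and 6.39 against 7.11 and 6.37.

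**Figure D5:**
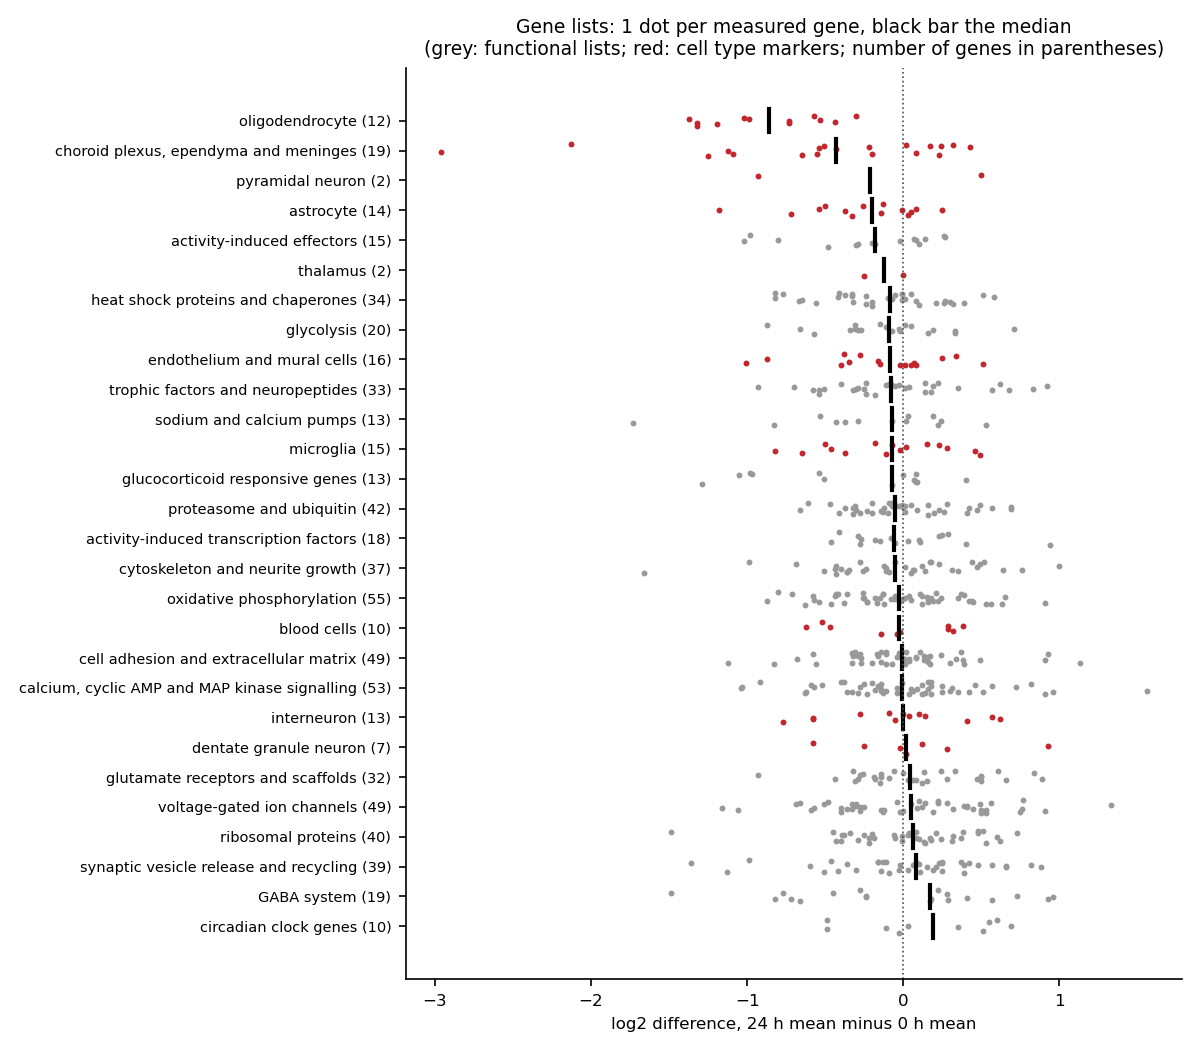
Each row is 1 gene list, ordered by its median, with 1 dot per measured gene at its log2 difference of 24 h minus 0 h, black bars for medians, grey for functional lists and red for cell type markers. The oligodendrocyte list stands lowest, with all 12 dots left of 0 and a median of -0.86, followed by choroid plexus at -0.43, while the other medians lie between -0.22 and 0.19.

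At the edge of detection, 24 tested probe sets were at the floor on both 24 h arrays and above it on both 0 h arrays, and 11 the reverse. For these the size of the difference is a lower bound, and the genes named next were chosen after their values were seen. Bmpr1a, a BMP receptor, was 3.62 and 3.88 at 0 h, and its difference was -1.42 or lower. Zeb1, a transcriptional repressor, was 3.59 and 4.47 at 0 h, with a difference of -1.69 or lower, and of -1.16 or lower on a second probe set. In the other direction Erbb2, a receptor tyrosine kinase, was 4.17 and 3.75 at 24 h, at least 1.62 above 0 h. One probe set of Camk2a, the major kinase of the postsynaptic density, was at the floor on both 0 h arrays and at 4.48 and 3.93 at 24 h, at least 1.87 above, while its other probe set gave 0.25.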

How the data were processed

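The table deposited by the authors holds linear intensity summaries, 1 per probe set and array. How the authors computed, corrected or scaled these values is not given in the sources used here. Of 8799 probe sets, 59 controls were set aside. Arrays were brought to one 2% trimmed mean (105), raised where lower to the 20th percentile of all arrays, and log2-transformed. A probe set was tested if 2 or more of the 16 arrays exceeded 16.9, the 40th percentile of all values. Of the 8740 probe sets, 7006 carried 1 gene symbol in the platform annotation, 308 several, and 1426 were unnamed; symbols were updated by gene identifier (6994 annotation entries matched).

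In R 4.3.3, limma 3.58.1 gave group means (lmFit) and moderated tests with an intensity trend in the variance (eBayes) over 7 groups, with 9 residual and 7.45 prior degrees of freedom, and p-values were adjusted by Benjamini-Hochberg at 0.05. The script was checked on simulated data. Named genes were, in each direction, those past the threshold, filled to 15 by smallest p from probe sets with 1 symbol, and members of the lists reported above, each list using the probe set with the highest mean. Lists were described and not tested. The members, lists and rules were chosen with earlier results of these data known. Same-numbered replicates of 0 h and 24 h did not deviate together (correlation 0.0599), and of 43 same-numbered pairs over all groups 12 exceeded 0.1, so numbers were not taken to pair samples. The number of arrays limits the precision. Alternatives changed the normalization, floor, filter, variance model, samples, weights, covariates, replicate block, probe set choice and single arrays.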

Additional observations from a re-analysis of the deposited data

How the results depend on the processing

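The 80 probe sets followed, picked by small p in this comparison, kept their direction in every alternative that tested them, as that choice would favour. The counts of calls moved. At an adjusted p under 0.05 in limma, 0 probe sets passed with the settings described, 132 in the fit of only the 4 arrays, 54 with array weights, 2 without the filter, and 0 to 2 on leaving out single arrays. At an unadjusted p under 0.05 the counts (299 higher, 278 lower) became 474 and 511 with only the 4 arrays, 532 and 522 with array weights, 124 and 172 with the actin ratio as a covariate, 179 and 164 with Ttr as a covariate, and 191 and 169 with 1 probe set per gene, a smaller table. Leaving out single arrays gave 179 to 369 higher and 161 to 343 lower; both extremes came without 24 h replicate 2 and without 6 h replicate 2. For the rest the cause was not tested. With the replicate number as a replicate block 0 passed, and 584 had an unadjusted p under 0.05, 302 higher and 282 lower. Quantile normalization, median centring, both other floors, both other filters, and variance without a trend or robust to outliers passed 0. Actin as a covariate moved the median of all probe sets to -0.07 and turned the share of higher among those with p under 0.05 from 51.8% to 41.9%. With 2 arrays per group the precision is low, and levels near the floor, as for Lcat, Etfdh and Enpp6, bound the size of a difference.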
